A study of Mus musculus with 4 samples.

Results

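Retinoic acid (RA) turns spermatogonia towards meiosis, and cells set their own exposure to it with enzymes that make RA, proteins that bind it and enzymes that destroy it. Transcript levels of 10 such genes were followed by RNA-seq in mouse spermatogonia kept in primary culture (SSC culture, for spermatogonial stem cells). They comprised the RA hydroxylases Cyp26a1, Cyp26b1 and Cyp26c1, the retinol dehydrogenase Rdh10, the retinal reductase Dhrs3, the retinal dehydrogenases Aldh1a1, Aldh1a2 and Aldh1a3, and the cellular RA-binding proteins Crabp1 and Crabp2. Members were chosen by gene name, and all 10 were found among the 55421 genes of the count table.

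Cultures of the CD1 background had been derived from neonatal testes, and were grown with GDNF and bFGF on irradiated mouse embryonic fibroblast feeders from another mouse stock, so the RNA of both cell types entered each library. Veh cultures stayed in complete SSC medium, whereas NRRA cultures received RA in a medium in which a balanced salt solution replaced most of the SSC medium. NRRA lasted 2 days in the general protocol, and the labels of these libraries do not give the time. There were 2 Veh and 2 NRRA libraries, and in these libraries RA and nutrient restriction always came together. By the study's medium list, the salt solution also diluted the GDNF, bFGF and serum of the SSC medium. The contributions of RA, nutrient restriction and lower growth factor supply cannot be told apart. The labels give the strain and no engineered allele. They also do not say whether Veh cultures received the solvent of RA, or from which cultures or mice the libraries of a group came, while the study describes its sequencing replicates as independent and biological. The p-values measure the spread between these libraries.

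In the usual pathway, RDH10 oxidises retinol to retinal, DHRS3 reduces retinal back to retinol, and the ALDH1A enzymes oxidise retinal to RA in a step that is not reversed. CRABP2 is known for carrying RA to its nuclear receptors, CRABP1 for holding RA in the cytoplasm, and the CYP26 enzymes for oxidising RA to products that are cleared. Cyp26a1 is a textbook direct target of the RA receptors, which bind DNA elements made of a repeated half-site. In the testis, Sertoli cells and later germ cells are the known sources of RA, and CYP26 enzymes of the tubule wall limit its spread.

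The sequences upstream of Cyp26a1, Dhrs3 and Crabp1 are shown because these genes had a very large, a large and a small difference between the groups described further on, and because Cyp26a1 alone among the members searched held a complete RA response element of the DR5 type. Each line gives the 250 bases before the RefSeq start of the gene, for Dhrs3 the first of its 3 starts (RefSeq, GRCm38.p6), 5′ to 3′ on the strand of the gene, and capitals mark the DR5 element.
Cyp26a1, chr19:37697558-37697807, plus strand: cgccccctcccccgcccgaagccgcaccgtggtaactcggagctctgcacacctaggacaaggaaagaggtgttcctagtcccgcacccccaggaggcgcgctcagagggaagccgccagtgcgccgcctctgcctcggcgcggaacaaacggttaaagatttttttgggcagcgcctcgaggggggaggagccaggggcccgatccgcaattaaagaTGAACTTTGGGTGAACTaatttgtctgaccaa
Dhrs3, chr4:144892577-144892826, plus strand: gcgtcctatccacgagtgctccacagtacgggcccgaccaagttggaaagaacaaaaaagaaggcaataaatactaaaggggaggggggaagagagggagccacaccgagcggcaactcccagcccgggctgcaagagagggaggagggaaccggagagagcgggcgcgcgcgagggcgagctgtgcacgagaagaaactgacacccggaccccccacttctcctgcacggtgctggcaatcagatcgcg
Crabp1, chr9:54764498-54764747, plus strand: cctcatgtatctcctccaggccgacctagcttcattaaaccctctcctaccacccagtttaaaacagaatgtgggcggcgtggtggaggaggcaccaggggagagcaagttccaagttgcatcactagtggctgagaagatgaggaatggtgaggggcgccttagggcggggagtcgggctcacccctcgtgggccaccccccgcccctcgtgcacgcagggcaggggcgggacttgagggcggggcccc

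The search covered both strands of windows of 300 bases, from 250 before to 50 after each start, for direct repeats of the RA half-site spaced by 1, 2 or 5 bases (DR1, DR2 and DR5). RefSeq windows were found for 7 of the 10 members, with 10 windows in all because Aldh1a1 and Dhrs3 have several starts. The Cyp26a1 element lies on the minus strand of the gene, between positions -32 and -16 counted from the start, and reads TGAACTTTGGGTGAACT on the strand shown, with both half-sites as TGAACT. Of 32841 promoter windows of the same length, 32 (0.0974%) held a DR5, 0.268% a DR2 and 0.222% a DR1. A lone half-site, which is also counted within these repeats, occurred in 43.7% of windows. Among the members it was found at the Cyp26a1 element and in a window of Aldh1a1. A match of letters describes the sequence only and is not a measured binding site, and the lack of a match says nothing beyond these windows.

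NRRA cultures had far more transcript of the RA-degrading enzymes, more of the retinal reductase and of both binding proteins, and differed in opposite directions in 2 of the retinal dehydrogenases. All 10 members had enough counts to be tested. A gene was called where the edgeR quasi-likelihood test gave a Benjamini-Hochberg adjusted p under 0.05 over all 20232 genes tested. Of the 10 members, 7 were called higher in NRRA, 1 lower and 2 not called. Over all tested genes 27.9% were called higher and 28.4% lower, together 56.4%, so calls as such were common in this comparison. At least 2-fold rises were called for 6 of 10 members against 6.29% of all tested genes, and a fall of at least 2-fold for 1 member against 7.02%. The median log2 fold change (NRRA over Veh) was 1.31 over the members and 0.00029 over all tested genes. The levels of both groups did not overlap for 8 of the 10 members, which was so for 76.7% of all tested genes.

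**Figure D1:**
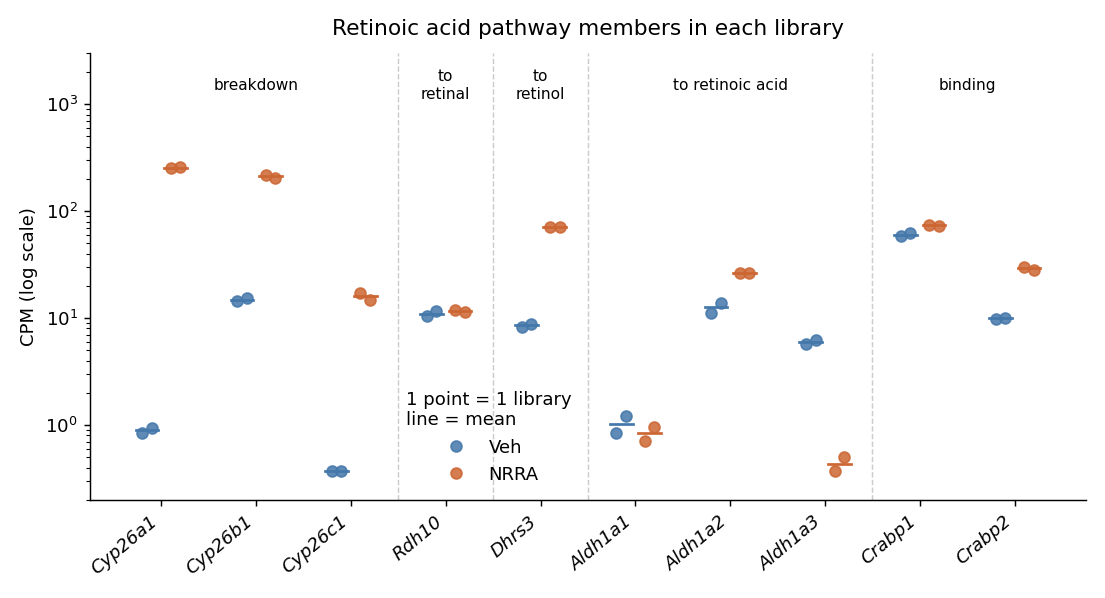
Level of each member in each library, in CPM (counts per 1000000 counts, log scale), with genes ordered by role and short lines at the group means. The NRRA points lie above the Veh points for 7 genes and below them for Aldh1a3, while the groups overlap for Rdh10 and Aldh1a1.

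CPM values here are relative to a library total corrected by TMM, a scaling that lines up the bulk of genes. Total counts were 28022265 to 31604769 per library, and 3 counts (taken as the floor) were worth 0.0920 to 0.111 CPM. The lowest count of any member in any library was 10, so that none lay at the floor. Intervals of fold changes below are 95% intervals from the same fit. Exons of the members share no base with another annotated gene, and their longest transcripts have no stretch of at least 100 bases with at least 95% identity in another gene (GENCODE M21, GRCm38).

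Cyp26a1, the RA hydroxylase best known as a rapid RA target, was scarce in complete medium and became the most abundant member per length in NRRA. The gene lies on chromosome 19 (ENSMUSG00000024987, GRCm38, 37697798 to 37701536, plus strand). Its counts were 23 and 28 in Veh against 8191 and 7760 in NRRA. In CPM these were 0.847 and 0.940 against 251 and 257.5. Both NRRA libraries stood far above both Veh libraries, and the libraries of a group lay close together. The log2 fold change was 8.14 (interval 7.99 to 8.29, edgeR adjusted p 4.01e-31), or 283-fold, the sixth highest of all tested genes.

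Cyp26b1, the CYP26 enzyme that guards the fetal testis from RA, was the main CYP26 transcript in Veh. It lies on chromosome 6 (ENSMUSG00000063415, 84571414 to 84593908, minus strand). Its counts were 389 and 461 in Veh against 7129 and 6121 in NRRA, or 14.3 and 15.5 against 219 and 203 CPM. The groups were again widely separated. The log2 fold change was 3.82 (interval 3.71 to 3.93, edgeR adjusted p 2.94e-27), or 14.1-fold.

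Cyp26c1, the third hydroxylase of the family, rose from close to the floor. It is the upstream neighbour of Cyp26a1 on the same strand (ENSMUSG00000062432, chromosome 19, 37685581 to 37693398), with 4399 bases and no further annotated gene between them. Counts were 10 and 11 in Veh against 559 and 446 in NRRA. On the CPM scale they were 0.368 and 0.369 in Veh against 17.1 and 14.8 in NRRA. The rise of Cyp26c1 was 5.42 on the log2 scale (interval 5.01 to 5.84, edgeR adjusted p 4.84e-18), or 42.9-fold. The intervals of the 3 CYP26 genes did not overlap, with Cyp26a1 at the top and Cyp26b1 at the bottom.

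Dhrs3, which returns retinal to retinol and so works against RA synthesis, rose with the CYP26 genes. It lies on chromosome 4 (ENSMUSG00000066026, 144892827 to 144928209, plus strand). Dhrs3 had 226 and 264 counts in Veh against 2333 and 2151 in NRRA, or 8.32 and 8.86 against 71.6 and 71.4 CPM. Its log2 fold change was 3.05 (interval 2.91 to 3.19, edgeR adjusted p 9.37e-23), or 8.30-fold. Rdh10, which catalyses the opposite step, showed no such difference. It lies on chromosome 1 (ENSMUSG00000025921, 16105774 to 16133734, plus strand), with 281 and 345 counts in Veh against 386 and 345 in NRRA. Its CPM values of 10.4 and 11.6 in Veh enclosed the NRRA value of 11.5 and lay just under the other, 11.8. The log2 fold change of Rdh10 was 0.085 with an interval from -0.13 to 0.30 (edgeR adjusted p 0.517), so a change of 2-fold in either direction lies outside the interval, while a smaller change remains possible.

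**Figure D2:**
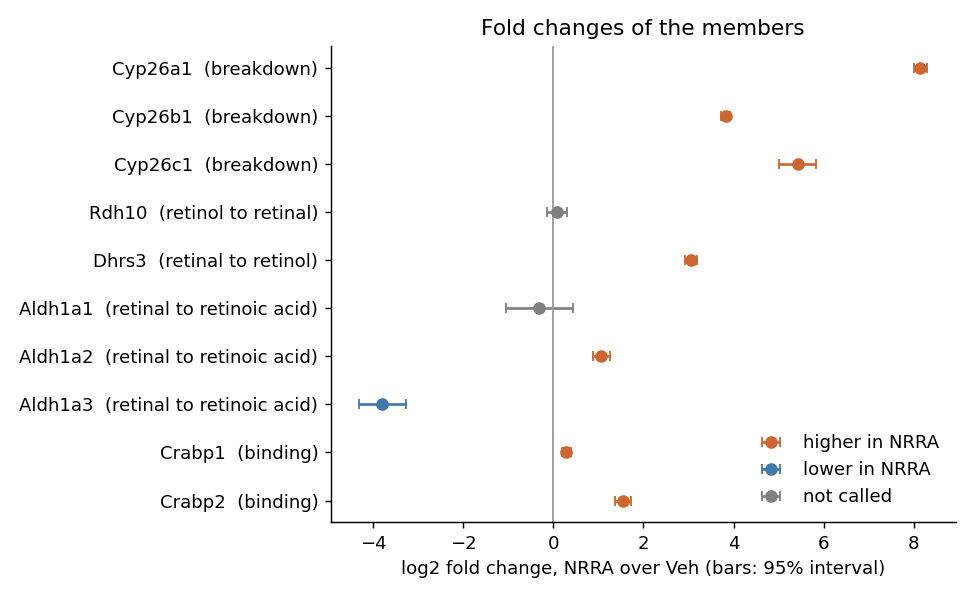
Log2 fold change (NRRA over Veh) of each member with its 95% interval, labelled by role. Cyp26a1 stands at 8.14 and Aldh1a3 at -3.79, and the intervals of Rdh10 and Aldh1a1 include 0.

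The retinal dehydrogenases, which carry out the last step of RA synthesis, went separate ways. Aldh1a2, the enzyme that supplies RA in the embryo (ENSMUSG00000013584, chromosome 9, 71215789 to 71296243, plus strand), had 304 and 415 counts in Veh against 864 and 795 in NRRA. These were 11.2 and 13.9 CPM in Veh against 26.5 and 26.4 CPM in NRRA. The Veh libraries differed more from each other than the NRRA libraries did, yet both lay below them. Aldh1a2 rose 2.10-fold, a log2 fold change of 1.07 (interval 0.89 to 1.25, edgeR adjusted p 9.05e-11). Without Veh replicate 1 it was 0.92, which is under 2-fold.

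Aldh1a3, a retinal dehydrogenase known from the eye and the nasal region (ENSMUSG00000015134, chromosome 7, 66390890 to 66427517, minus strand), was the only member called lower. It had 156 and 187 counts in Veh against 12 and 15 in NRRA, or 5.75 and 6.28 against 0.368 and 0.498 CPM. The NRRA counts remained above the floor in both libraries. The log2 fold change was -3.79 (interval -4.30 to -3.28, edgeR adjusted p 7.45e-13), a 13.9-fold lower level, and Aldh1a3 ranked 92 from the lowest of all tested genes.

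Aldh1a1, a retinal dehydrogenase of Sertoli cells, was the scarcest of the 3 in Veh (ENSMUSG00000053279, chromosome 19, 20492715 to 20643465, plus strand). Its counts were 23 and 36 in Veh against 23 and 29 in NRRA, or 0.847 and 1.21 against 0.705 and 0.962 CPM, and the groups overlapped. No difference was detectable at this depth (log2 fold change -0.31, interval -1.06 to 0.43, edgeR adjusted p 0.489), and the interval leaves room for a fall of about 2-fold.

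Both binding proteins were higher in NRRA, by unequal amounts. Crabp1 (ENSMUSG00000032291, chromosome 9, 54764748 to 54773110, plus strand) was already abundant in Veh, with 1577 and 1860 counts, and had 2417 and 2191 in NRRA. In CPM it went from 58.1 and 62.4 to 74.1 and 72.7, so that the gap between the groups was wider than the spread within either. The log2 fold change was 0.28 (interval 0.19 to 0.38, edgeR adjusted p 1.06e-05), or 1.22-fold. Crabp2 (ENSMUSG00000004885, chromosome 3, 87948666 to 87953376, plus strand) had 268 and 301 counts in Veh against 987 and 848 in NRRA, or 9.87 and 10.1 against 30.3 and 28.1 CPM. It rose 2.92-fold, a log2 fold change of 1.55 (interval 1.38 to 1.72, edgeR adjusted p 1.47e-14), and its interval did not overlap that of Crabp1.

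**Figure D3:**
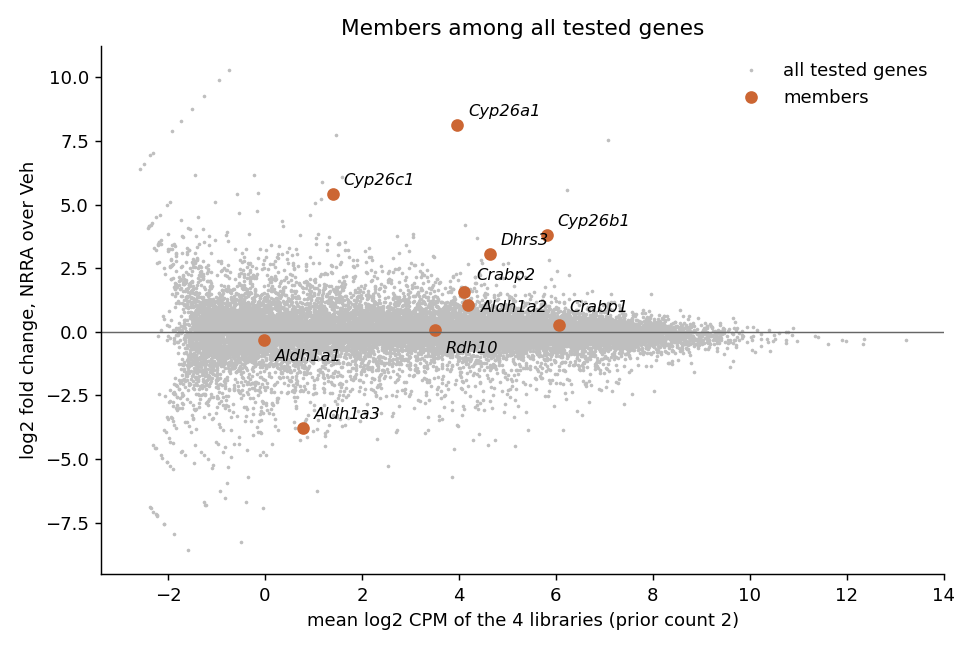
Log2 fold change (NRRA over Veh) against the mean log2 CPM of the 4 libraries for the 20232 tested genes (grey) and the members (labelled). Cyp26a1, at 8.14, lies above nearly all genes of its abundance, while Crabp1, at 0.28, and Rdh10, at 0.085, lie within the band of grey points.

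To compare genes with each other, CPM was divided by the length of the merged exons in kilobases. In Veh, Crabp1 led with 75.1 ± 3.85 CPM per kilobase (SD, n = 2), followed by Crabp2 at 7.56 ± 0.125 and Aldh1a2 at 5.55 ± 0.854. Dhrs3, Cyp26b1 and Rdh10 came next, between 2.64 and 2.94 CPM per kilobase, and neighbours among these 3 overlapped between libraries. Aldh1a3 (1.24 and 1.36 in the libraries) and Cyp26a1 (0.451 ± 0.0331) followed, and Cyp26c1 and Aldh1a1, at 0.211 and 0.208, overlapped. The order was different in NRRA. There Cyp26a1 led with 128 ± 2.23 CPM per kilobase (SD, n = 2), ahead of Crabp1 at 91.5 ± 1.26, Cyp26b1 at 39.4 ± 2.06, Dhrs3 at 24.4 ± 0.0441 and Crabp2 at 22.1 ± 1.14. Aldh1a2 (11.7 ± 0.0377), Cyp26c1 (9.14 ± 0.950), Rdh10 (2.80 ± 0.0665), Aldh1a1 (0.169 ± 0.0368) and Aldh1a3 (0.0938 ± 0.0199) made up the rest. All neighbours in the NRRA order were separated between libraries on this length. With the length of the longest transcript instead, an order looked at after the values were seen, Crabp2 (30.2 and 32.5 CPM per kilobase) enclosed Dhrs3 (30.5 and 30.6) in NRRA. In Veh, Aldh1a1 (0.359 and 0.513) then stood above Cyp26c1 (0.211 in both) and overlapped Cyp26a1 (0.473 and 0.525), and Dhrs3 was separated from Cyp26b1.

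Summed over the CYP26 family, the length-scaled level was 3.32 and 3.58 CPM per kilobase in Veh against 177 and 176 in NRRA, with ratios of 49.3 to 53.5 when each NRRA library was set against each Veh library. Cyp26b1 made up 80.8% and 80.8% of this sum in Veh against 23.0% and 21.5% in NRRA. The share of Cyp26a1 was 12.9% and 13.3% in Veh against 71.4% and 73.7% in NRRA. Cyp26c1 held between 4.81% and 6.36% in all libraries. The dominant CYP26 transcript thus differed between the groups in every library.

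The ALDH1A family had 6.36 and 7.76 CPM per kilobase in Veh against 11.93 and 11.95 in NRRA, with ratios of 1.54 to 1.88. Aldh1a2 accounted for 77.7% and 79.3% of the family in Veh and for 98.1% and 97.5% in NRRA, while the share of Aldh1a3 was 19.6% and 17.5% in Veh against 0.668% and 0.902% in NRRA. For the CRABP family the sum was 79.9 and 85.5 CPM per kilobase in Veh against 115 and 112 in NRRA. Crabp2 made up 9.35% and 8.94% of that sum in Veh against 19.9% and 19.0% in NRRA. In each family sum both NRRA libraries lay above both Veh libraries. The sums and shares were not tested. An exact permutation test of 2 against 2 libraries could not give a two-sided p below 0.333.

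**Figure D4:**
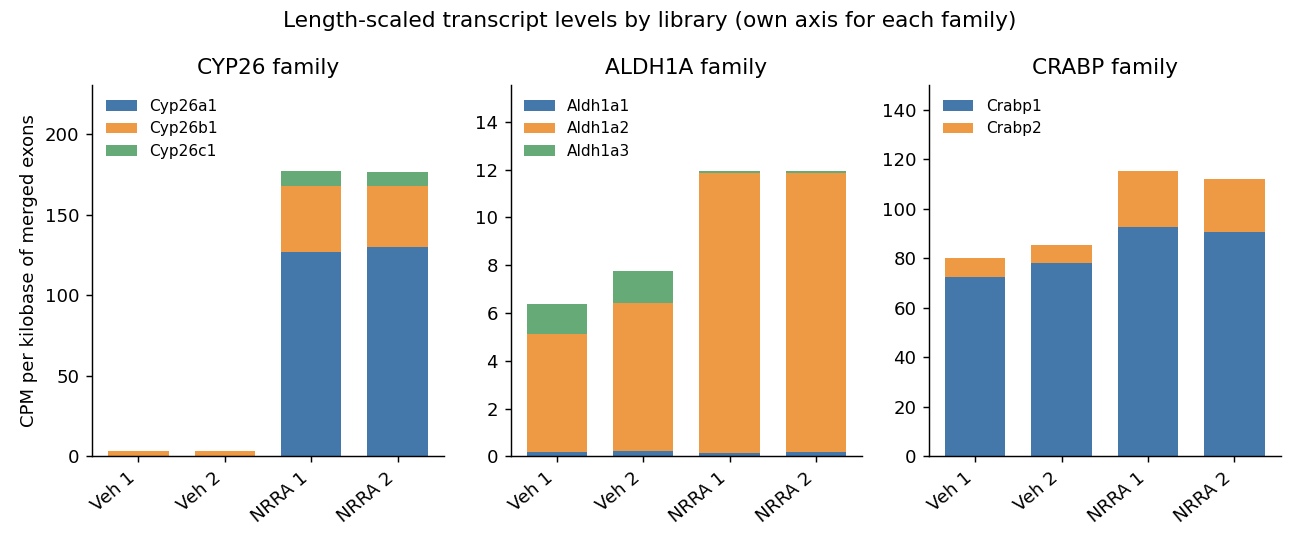
Length-scaled level (CPM per kilobase of merged exons) of each gene family in each library, stacked by gene, with a separate axis for each family. The CYP26 stacks reach 177 and 176 in NRRA against 3.32 and 3.58 in Veh, and their largest part changes from Cyp26b1 to Cyp26a1.

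Of 21 other genes whose enzymes oxidise or reduce retinol and retinal, 12 passed the filter on low counts. Of these, 2 were called higher and 5 lower (over all tested genes, 27.9% and 28.4%). Their median log2 fold change was 0.030 (all tested genes, 0.00029). Of those higher, Rdh14 (0.34) lost its call with DESeq2 and without NRRA replicate 2. Of those lower, Adh5 (-0.155) lost its call with library size only and Aox1 (-0.40) with DESeq2. Aox1 stood at -0.52 without NRRA replicate 1 and at -0.30 without NRRA replicate 2. Among the called genes, the largest differences in log2 were those of Dhrs9, a retinol dehydrogenase (-1.42, edgeR adjusted p 0.0011), Rdh12, a retinal reductase (1.09, edgeR adjusted p 2.85e-04), and Akr1b8, an aldo-keto reductase (-0.66, edgeR adjusted p 1.98e-10). Dhrs9 and Rdh12 had between 15 and 95 counts in any library.

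Among genes of retinoid uptake, transport and storage, 8 of the 12 tested (of 18 listed) were called higher and 1 lower, with a median log2 fold change of 0.55. Stra6, the membrane receptor that takes up retinol from its plasma carrier, had 12 and 11 counts in Veh against 202 and 156 in NRRA, a log2 fold change of 3.80 (edgeR adjusted p 1.82e-12). Stra6l, a relative of Stra6, went the other way, from 41 and 20 counts to 4 and 7 (-2.59, edgeR adjusted p 1.77e-04), and its log2 fold change lay between -3.10 without NRRA replicate 2 and -1.91 without Veh replicate 1. Lrat, which esterifies retinol for storage, had at most 20 counts in any library and was not called.

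The RA receptors were split. Of the 6, Rarb, Rara and Rxrb were called higher, with log2 fold changes of 7.74, 0.57 and 0.30. Rarg and Rxra were called lower, at -0.58 and -0.48. Rxrg had 219 and 248 counts in Veh against 29 and 7 in NRRA and was called lower, at -3.83, with -5.11 without NRRA replicate 1 and -3.20 without NRRA replicate 2. Rarb, a classic RA target, had 1 and 9 counts in Veh against 1212 and 1204 in NRRA, and 38.4% of its exonic bases are shared with Top2b or another gene on the opposite strand, which leaves its level uncertain because the strand setting of the counting is not given in the sources used here. Leaving out a Veh library moved its log2 fold change to 6.98 (replicate 1) or 9.87 (replicate 2). Among 9 known RA target genes, 9 were called higher (over all tested genes, 27.9%), with a median of 2.83. The list was chosen with earlier results of these data known, so the count only describes these data. This list includes Rarb and Stra6 from the lists above, and Stra8, the RA-induced gene of meiotic entry, at 7.56.

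**Figure D5:**
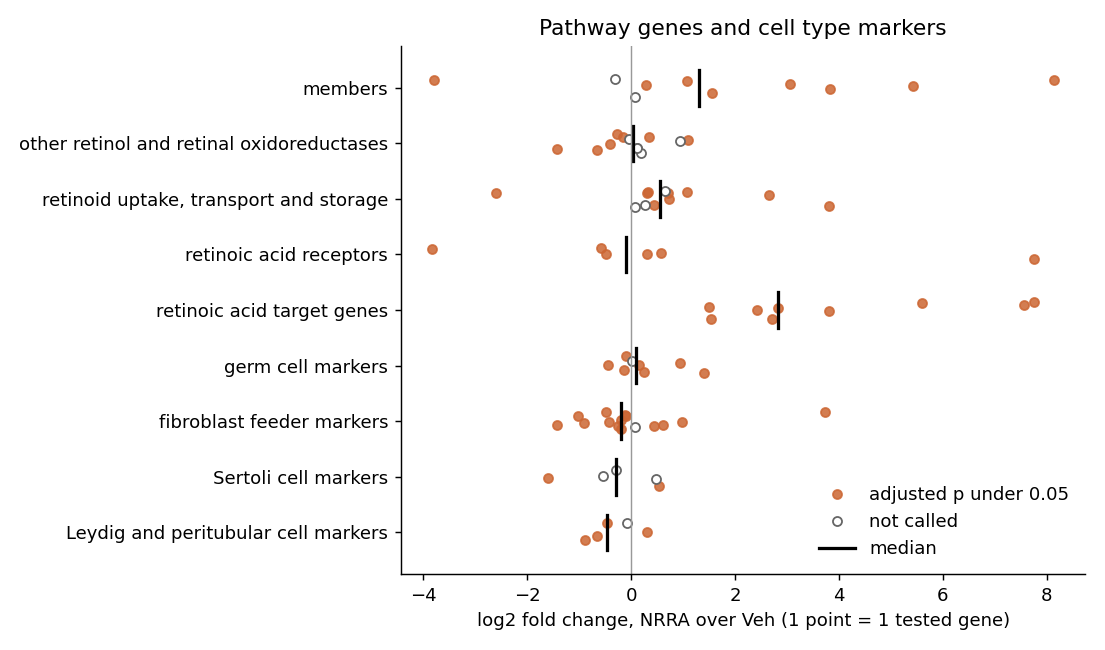
Log2 fold changes (NRRA over Veh) of the tested genes of each list, with called genes filled, genes not called open, and a line at the list median. The medians of the members (1.31) and of the RA target genes (2.83) lie to the right of those of the other lists.

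The genes with the most similar pattern over the 4 libraries were sought among tested genes whose mean log2 CPM reached 3, by the root mean square difference in log2 CPM after each gene was centred on its own mean. For Cyp26a1 they were Stra8 (0.252), with 261 and 300 counts in Veh against 60702 and 55775 in NRRA, then Kit (1.24) and Ccdc88b (1.94). Within this limit on abundance, Stra8 was several times closer to Cyp26a1 than the next gene. Genes under the limit were not compared, Rarb (log2 fold change 7.74) among them. Kit, which encodes a receptor of differentiating spermatogonia, had a log2 fold change of 5.59, and Ccdc88b had 126 and 105 counts in Veh against 2515 and 2175 in NRRA. For Aldh1a3, which was itself below that abundance, they were Nxph4 (0.158), Egr3 (0.158) and Grem1 (0.182), with log2 fold changes of -3.69, -3.36 and -3.87.

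The label spermatogonia was checked against marker genes, and so was the presence of other cells. All 8 germ cell markers were detected in all libraries, and summed to between 1708 and 1906 CPM. Of these, 4 were called higher and 3 lower, led by Sycp3 (1.40), Sohlh1 (0.94) and Tdrd1 (-0.45), and 52.2% of the exonic bases of Sycp3 overlap a gene on the opposite strand. Of those lower, Dnd1 (-0.094, edgeR adjusted p 0.0491) lost its call in 8 of the 11 alternatives. With library size in place of TMM, 5 were called higher and 1 lower. The 15 fibroblast feeder markers were all tested. They summed to 9588 and 9509 CPM in Veh against 7641 and 7478 in NRRA. Of them, 4 were called higher and 10 lower (over all tested genes, 27.9% and 28.4%), with a median of -0.19. The largest values were those of Fap (3.73), Lum (-1.43) and S100a4 (-1.01, and 51.7% of its exonic bases overlap another gene). The call of S100a4 was lost in 6 of the 11 alternatives. Dcn (-0.125) and Col1a1 (-0.097) also lost their calls with DESeq2 and with library size only. In both settings 7 feeder markers were called lower. Fn1, the most abundant of the feeder markers, had 6137 and 6080 CPM in Veh against 4357 and 4347 in NRRA. Without Fn1, a sum taken after its values were seen, the list had 3451 and 3429 CPM in Veh against 3284 and 3131 in NRRA. The feeder markers went both ways, with 4 higher and 10 lower. In such mixed RNA, the number of feeder cells, their RNA content and differences of single genes cannot be told apart. Whether the feeders contributed to the differences of Aldh1a3, Crabp2 or any other member was not tested.

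Sertoli cell markers summed to 37.9 and 42.4 CPM in Veh against 21.2 and 21.4 in NRRA, and Sox9, with 735 and 874 counts in Veh against 304 and 284 in NRRA, fell by 1.59 on the log2 scale. Without Sox9 the sum was 10.9 and 13.0 CPM in Veh against 11.84 and 12.01 in NRRA, so that the groups overlapped. Inha was called higher (0.53), a call lost with DESeq2 and without Veh replicate 1 or NRRA replicate 1, and the other 3 tested markers were not called. The Sertoli-defining Amh and Rhox5 were at or below 3 counts in all 4 libraries. Leydig and peritubular markers summed to 98.2 and 110 CPM in Veh against 74.9 and 81.7 in NRRA, with 1 called higher and 3 lower. The higher one, Star (0.31), lost its call with DESeq2 and without any 1 of the libraries. The lower ones were Myh11 (-0.88), Cnn1 (-0.66, a call lost with DESeq2 and without Veh replicate 1) and Acta2 (-0.46), and without Acta2 the sum was 15.4 and 16.6 CPM in Veh against 14.5 and 14.0 in NRRA. Hsd3b1 was at or below 3 counts in all 4. From which cells the transcripts of the Leydig and peritubular markers came was not tested. With library size in place of TMM scaling, calls over all genes shifted from 49.6% to 60.3% higher, but the direction and the call of every member were kept.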

How the data were processed

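RNA-seq libraries of 2 Veh and 2 NRRA samples were analysed (a TruSeq kit per the labels, a stranded oligo-dT kit per the study's methods), with groups and replicate numbers taken from the sample titles and table columns matched by the sample descriptions. The authors deposited raw counts per gene, whole numbers that were not normalized. Per the labels' processing notes, the tools were bcl2fastq, STAR 2.6.1c and featureCounts 1.6.4 with the mm10 build (the same assembly as GRCm38). The annotation release and strand setting are not given in the sources used here. Of 55421 gene identifiers, 55240 were found in GENCODE M21, which gave coordinates, exon lengths and overlaps (BLAST 2.17.0 for near-identical stretches).

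Counts were tested with edgeR 4.0.16 (R 4.3.3), using filterByExpr, TMM scaling and the robust quasi-likelihood F test, with Benjamini-Hochberg adjustment over all genes tested. Log2 CPM used a prior count of 2. DESeq2 1.42.0, other scalings and filters, a replicate block and leaving out each library were the alternatives. The members and lists were chosen with earlier results of these data known. The text names all members, the RA receptors, Stra8, the 3 called genes with the largest absolute fold change per list, marker genes at the floor in all libraries, and the 3 genes most like the member with the largest rise and fall. A gene that this rule names is not reported here. Lrat, Fn1 and the genes of lost or gained calls were chosen after its values were seen. Replicates of a group differed by more than sampling noise (chi-square per degree of freedom 2.45 in Veh and 1.99 in NRRA). The spread beyond that noise was small, with a common coefficient of variation of 2.6% in the edgeR fit. Whether it covers the variation between cultures or mice is not known. Intervals cover counting and library spread, and PCR copies were not told apart.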

Additional observations from a re-analysis of the deposited data

How the results depend on the processing

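Neither the sign nor the call of any of the 10 members changed in the 110 fold changes from the 11 alternatives, which were DESeq2, other scalings, filters and dispersion estimates, the replicate block, and each library left out. Leaving out a library leaves a lone sample that is assumed to vary like the others. Among these, Aldh1a1 moved most, from -0.55 without NRRA replicate 2 to -0.030 without Veh replicate 2, and Rdh10 ranged from 0.0070 without Veh replicate 1 to 0.17 without Veh replicate 2. Neither was called in any of them. With the replicate number as a block, 5772 genes were higher and 5836 lower, and the members again gave 7 and 1. The numbers are those of the sample titles and are not known to pair the samples. The names of the deposited columns number the Veh libraries differently (2 and 3, against 1 and 2 for NRRA), so that under them only 1 number is shared. The deviations of same-numbered libraries correlated at -0.011 over the tested genes, with 2 pairs. The block changed no other count of calls by over 1.5 times.

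Counts in the other lists moved by over 1.5 times in the following cases, and the genes behind them are named after their values were seen. Among the other retinol and retinal oxidoreductases, the number higher was 1 with DESeq2 and 1 to 3 with a library left out, and Rdh14 was lost with DESeq2 and without NRRA replicate 2. Germ cell markers had 1 lower with library size only, where Dnd1 and Mael were lost. Sertoli cell markers had 0 higher with DESeq2 (0 at an unadjusted p under 0.05) and 0 to 1 with a library left out, where Inha was lost without Veh replicate 1 or NRRA replicate 1. They had 1 to 2 lower with a library left out, where Wt1 was gained without Veh replicate 1 and Dhh without NRRA replicate 2. Leydig and peritubular markers had 0 higher with DESeq2 (0 at an unadjusted p under 0.05) and 0 to 0 with a library left out, where Star was lost each time. The cause was not tested. With the longest transcript as the length, Crabp2 made up 12.5% of the CRABP sum in Veh and 25.5% in NRRA, and Cyp26a1 12.4% and 71.7% of the CYP26 sum. The standard errors of the log2 fold change were highest for Aldh1a1 (0.362), Aldh1a3 (0.249) and Cyp26c1 (0.201), which had 10 to 36 counts in 1 or both groups.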
